A study of Mus musculus with 8 samples.

Results

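Microglia that carry CD11c, sorted from mice with neuromyelitis optica (NMO), were compared with microglia of control mice across all genes with enough counts. The comparison rests on 5 of the 8 RNA sequencing libraries of the series: the 2 labelled as CD11c positive cells of NMO mice and the 3 labelled as CD11C negative cells of control mice. The strain background of all samples is C57BL/6, and all cells were taken out of the tissue and sorted with CD11C, CD11B and CD45. The 3 remaining libraries, CD11c negative microglia of NMO mice (NMO CD11c-), shared the estimate of the spread and were used to test whether the 2 disease subsets differed. The titles of the control libraries call them total microglia of unmanipulated mice, whereas their population label calls them CD11C negative. No CD11c+ cells of control mice were among the samples, so an effect of the subset and an effect of the disease cannot be told apart. The control libraries carry the numbers 21 to 23 and the NMO libraries numbers from 7 to 12, and the labels name no batch, so preparation and disease cannot be told apart either. How NMO was induced, the age and sex of the mice and whether each library came from a separate mouse are not stated in the labels. The p-values therefore speak only to the spread among these libraries, which may be technical.

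Microglia are the resident macrophages of the brain and spinal cord. In the healthy tissue they hold a surveying state marked by receptors for nucleotides and chemokines, such as P2ry12 and Cx3cr1, and they depend on the growth factor receptor Csf1r and on TGF-beta. NMO is an inflammatory disease in which antibodies, in most patients against the astrocyte water channel aquaporin 4, and complement injure astrocytes in the optic nerve and spinal cord. CD11c, the integrin alpha X encoded by Itgax, pairs with CD18 to form complement receptor 4, and microglia that carry it are known from development, demyelination and neurodegeneration, where they express genes of phagocytosis, lysosomes and lipid handling.

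Levels below are in CPM, the read count of a gene relative to the scaled size of its library. Itgax was at 188 and 181 CPM in the CD11c+ libraries and at 30.6, 32.1 and 30.99 CPM in the controls (adjusted p = 2.05e-06, log2 fold change 2.56 with SE 0.10). The groups do not overlap, and this gene was the basis of the sort, so it serves as a check of the labels. Itgam, which encodes CD11b and whose exons overlap those of another gene model, was at 2160 and 2276 CPM against 2430, 2385 and 2231 CPM in the controls, and the groups overlap (adjusted p = 0.693). The CD45 gene Ptprc was at 704 and 998 CPM against 637, 652 and 686 CPM (adjusted p = 0.138). Both CD11c+ libraries lie above every control for Ptprc, replicate 1 by little and replicate 2 by more, and the test did not call it. It was called without CD11c+ replicate 1 (adjusted p = 0.0116) and with the correction for GC content and length (adjusted p = 0.000434). P2ry12, which defines microglia and was named after its value was seen, was at 1950 and 2760 CPM in the CD11c+ libraries. The labelled cell type is thus present in both, although the gene was called lower than in the controls.

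The CD11c+ libraries were the smallest, with 4943207 and 5914412 counts, against 7500815 to 9246061 in the controls and 6437516 to 6819662 in the NMO CD11c- libraries. CD11c+ replicate 1 stood apart from the other 7 in its relation to GC content. Across genes, its deviation from the mean of all libraries rose with GC content (Spearman's rho 0.588, against -0.297 to -0.0371 in the others). Immediate-early genes had a mean log2 CPM of 6.57 in CD11c+ replicate 1 and 6.28 in NMO CD11c- replicate 1, the lowest library. In CD11c+ replicate 2 that mean was 8.90, the highest of all libraries. By chi-square per degree of freedom, a measure of how far the counts of 2 libraries differ, the CD11c+ libraries stood 36.9 apart. CD11c+ replicate 1 stood 27.8 to 31.2 from the NMO CD11c- libraries and 46.4 to 62.9 from the controls. CD11c+ replicate 2 stood 13.1 to 31.7 from the NMO CD11c- libraries and 23.98 to 28.9 from the controls. The 2 replicates were thus less alike than either was to any NMO CD11c- library. With 2 CD11c+ libraries, results that depend on one of them are named below. In bulk samples such as these, fewer cells of a type and less RNA per cell cannot be told apart.

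Of 12002 genes tested, 822 were higher in CD11c+ than in control microglia (6.85% of the genes) and 403 were lower (3.36%) at an adjusted p under 0.05 by edgeR's quasi-likelihood test. At least 2-fold differences were found for 351 of the genes called higher and 84 of those called lower. All 822 and all 403 have groups that do not overlap, whereas without regard to the test 22.2% of the genes had both CD11c+ libraries above every control and 21.5% had both below. The count of genes called higher fell to 398, 414 and 388 without control replicates 1, 2 and 3, and that of genes called lower to 117, 108 and 101. Leaving out either CD11c+ library leaves 1 in that group. Counts from such a fit, here and below, rest on the spread within the other groups and cannot show how CD11c+ libraries vary. Without CD11c+ replicate 1 there were 650 higher and 226 lower genes, and without CD11c+ replicate 2 there were 2019 and 2051. Called without every one of the 8 libraries in turn were 332 of the genes called higher and 68 of those called lower.

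**Figure D1:**
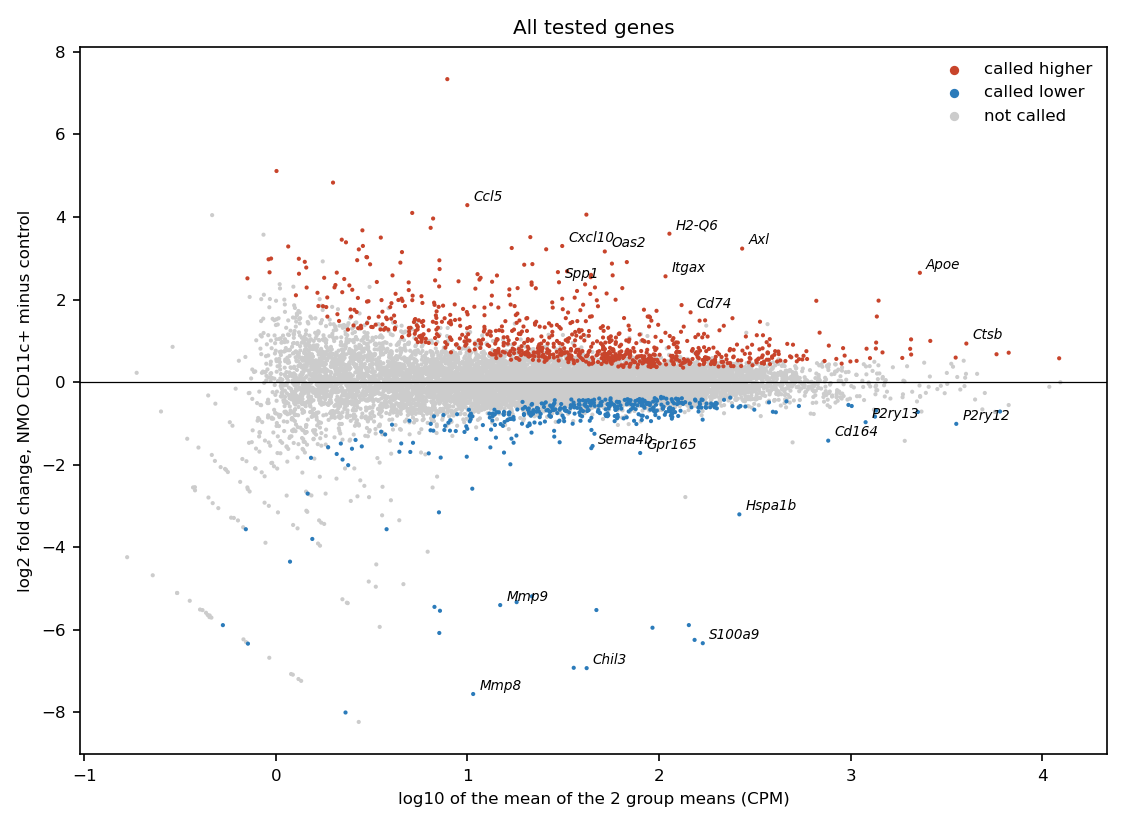
Log2 fold change of each tested gene (vertical axis, CD11c+ minus control) against the log10 of the mean of the 2 group means in CPM (horizontal axis), with genes called higher in red, called lower in blue and not called in grey. The genes with the largest drops, among them S100a9, Chil3, Mmp8 and Mmp9, sit at log2 fold changes of -5 and below, and the called genes with the largest rises are spread over a wide range of levels.

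Interferon-response genes made up the largest block of raised genes among the lists examined. Type I and type II interferons bind receptors that activate transcription factors, and one of the complexes formed binds the interferon-stimulated response element, GAAANNGAAA, in promoters of antiviral genes. Among antiviral effectors 32 of 45 tested members rose, with a median log2 fold change over the 45 of 1.43 against 0.006 over all tested genes. The products of these genes sense or degrade viral RNA, block translation or trap virus particles.

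Oas2, one of the 2',5'-oligoadenylate synthetases that activate RNase L when they meet double-stranded RNA, was at 78.8 and 108 CPM in the CD11c+ libraries and at 10.03, 10.8 and 10.5 CPM in the controls (adjusted p = 3.5e-05, log2 fold change 3.17 with SE 0.21; ENSMUSG00000032690, chromosome 5 from 120730333 to 120749853 in GRCm38). Oasl1, a relative without synthetase activity, was at 12.5 and 11.4 CPM against 0.856, 0.643 and 1.18 CPM (adjusted p = 4.26e-05, log2 fold change 3.74 with SE 0.27). Zbp1, a sensor of left-handed nucleic acid that can start necroptosis, was at 34.7 and 34.7 CPM against 5.01, 4.499 and 4.97 CPM (adjusted p = 3.5e-05, log2 fold change 2.84 with SE 0.18). All 3 genes are low in every control and high in both CD11c+ libraries, and each stays called without any 1 library. Slfn5, a member of the Schlafen family, was at 48.4 and 51.8 CPM against 11.01, 13.1 and 12.9 CPM (adjusted p = 3.5e-05, log2 fold change 2.02 with SE 0.13). Ifi27l2a, an interferon-inducible mitochondrial protein, was at 35.8 and 25.9 CPM against 2.32, 3.54 and 3.79 CPM (adjusted p = 6.5e-05, log2 fold change 3.25 with SE 0.25). Ifi44 was at 3.68 and 6.695 against 0.489, 0.643 and 0.392 CPM (adjusted p = 0.0022, log2 fold change 3.299 with SE 0.47). Oas1g, which shares much of its sequence with other Oas1 genes so that reads could be divided between them, was at 10.01 and 9.51 CPM against 0.122, 0.964 and 0.523 CPM (adjusted p = 0.000807, log2 fold change 4.099 with SE 0.48). In each of these genes the lowest CD11c+ value is several times the highest control value.

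Interferon-inducible GTPases, which attack the vacuoles of intracellular pathogens, and HIN200 proteins, which bind DNA, formed a second list of 20 tested genes, of which 10 rose and 1 fell (median log2 fold change 1.03). Ifi204 was at 83.3 and 113 CPM in CD11c+ cells and 13.2, 19.5 and 16.2 CPM in controls (adjusted p = 4.13e-05, log2 fold change 2.59 with SE 0.18). Ifi207 was at 48 and 54.4 CPM against 5.99, 8.78 and 9.42 CPM (adjusted p = 4.26e-05, log2 fold change 2.67 with SE 0.19). These are neighbouring HIN200 genes with similar sequences on chromosome 1 (Ifi204 from 173747293 to 173766943, Ifi207 from 173723427 to 173741747), so their counts are uncertain relative to each other. Of the guanylate-binding proteins, Gbp4 was at 8.38 and 10.04 CPM against 2.32, 2.36 and 2.62 CPM (adjusted p = 0.000984, log2 fold change 1.92 with SE 0.23). Gbp2 was at 24.5 and 31.7 CPM against 11.2, 9.86 and 12.2 CPM (adjusted p = 0.00104, log2 fold change 1.35 with SE 0.17). The member that fell was Gbp7, named after its value was seen, with a log2 fold change of -0.52. It was not called lower with the correction for GC content and length. Its call is lost when replicate 1 of CD11c+, replicate 3 of NMO CD11c- or replicate 1, 2 or 3 of the controls is left out (adjusted p from 0.0511 to 0.0981).

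In the signal chain that links interferon receptors to these genes, 4 of 19 tested members rose (8 without CD11c+ replicate 2) and the median log2 fold change was 0.24. Irf7, the factor that amplifies type I interferon production, was at 77.01 and 76.8 CPM against 13.1, 18.96 and 14.8 CPM in controls (adjusted p = 9.26e-05, log2 fold change 2.29 with SE 0.19). Stat2, a transcription factor of the type I response, was at 154 and 159 CPM against 79.6, 85.3 and 82.7 CPM (adjusted p = 0.000694, log2 fold change 0.92 with SE 0.10). The groups do not overlap for either gene, and the fold change of Stat2 was the smaller on the log2 scale. Ifngr2, the second chain of the interferon gamma receptor, was at 321 and 289 CPM against 196, 217 and 222 CPM (adjusted p = 0.0156, log2 fold change 0.53 with SE 0.11). The call does not hold when replicate 1 of the controls (adjusted p = 0.0745) or replicate 2 of the controls (0.0572) is left out. Between the CD11c+ and CD11c- cells of NMO mice the antiviral list differed by a median log2 of 0.02. Mean log2 CPM of the antiviral list was 5.20 and 5.34 in the CD11c+ libraries, 5.15, 5.44 and 5.16 in the NMO CD11c- libraries and 3.70, 3.86 and 3.87 in the controls, so both disease subsets lie above every control and overlap each other.

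The promoters of raised interferon genes were read for the response element because the genes moved together; they are shown to place that sequence beside the values. RefSeq promoter sequences of GRCm38.p6 were matched for 35 of the 46 genes called higher in the 3 interferon lists. Of the 35, 20 hold GAAANNGAAA on either strand in the 250 bases before the start site. Across all 27025 promoters of that length in the table (the first one listed for each gene) the share was 3.04%. The lists were made of genes known to respond to interferon, so no result is read from the 2 shares. The nearest match lay 2 to 212 bases before the start site, with a median of 52.5, and 14 of the 20 had it within 100 bases. Below are pieces around the match nearest to the start site for the 8 such genes with the smallest adjusted p whose piece lies outside annotated exons. Each is written 5′ to 3′ on the strand of the gene, and the capitals mark GAAANNGAAA or its reverse complement TTTCNNTTTC:
Ifi207, chr1:173741811-173741880, minus strand: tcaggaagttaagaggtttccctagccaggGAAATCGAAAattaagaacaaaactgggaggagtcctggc
Ifit3, chr19:34583377-34583446, plus strand: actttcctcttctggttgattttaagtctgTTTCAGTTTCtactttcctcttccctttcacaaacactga
Oas1a, chr5:120907526-120907569, minus strand: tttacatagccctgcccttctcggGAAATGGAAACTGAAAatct
Bst2, chr8:71537557-71537626, minus strand: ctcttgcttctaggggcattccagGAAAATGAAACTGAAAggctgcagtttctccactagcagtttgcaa
Rsad2, chr12:26456533-26456602, minus strand: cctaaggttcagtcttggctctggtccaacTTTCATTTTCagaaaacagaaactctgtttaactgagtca
Stat2, chr10:128270248-128270315, plus strand: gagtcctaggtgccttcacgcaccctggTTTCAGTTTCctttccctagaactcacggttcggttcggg
Oas1g, chr5:120887614-120887655, minus strand: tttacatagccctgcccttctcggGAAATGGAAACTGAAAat
Ifi208, chr1:173673577-173673646, plus strand: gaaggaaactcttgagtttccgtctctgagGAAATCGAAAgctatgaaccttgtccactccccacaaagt

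Oas1a, Oas1g and Bst2 show overlapping copies of the element in 1 run of capitals, and the 42 bases of the Oas1g piece are identical to the first 42 of Oas1a. Ifi207 and Ifi208 share the letters GAAATCGAAA. Bst2 encodes tetherin, which holds budding virus at the cell surface, and rose from 48.7, 49.8 and 44.99 CPM in the controls to 145 and 123 CPM (adjusted p = 0.000286, log2 fold change 1.49 with SE 0.14). Rsad2 encodes viperin, an enzyme that makes a chain-ending nucleotide, and rose from 4.28, 3.32 and 4.71 CPM to 17.98 and 30.8 CPM (adjusted p = 0.00033, log2 fold change 2.58 with SE 0.26). The element was also present in 10 of 31 matched interferon-list genes that were not called, and in 46 of 652 matched genes called higher and 7 of 314 called lower (265 of 9438 among all tested). Fewer than 80% of the called and of the tested genes had a promoter in the table, so these shares describe the matched genes and the comparison between sets is void. The same holds for the E-box CACGTG, read on both strands because it is its own reverse complement (68 of 652 called higher, 31 of 314 called lower, 815 of 9438 tested), the cAMP response element TGACGTCA, which is also its own reverse complement (17, 11 and 269) and the serum response element (10, 3 and 100). Across all promoters of the table the E-box was found in 6.05%, the cAMP response element in 1.62% and the serum response element in 1.4%. A match describes letters in this window and not binding.

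Antigen-presentation genes rose as well. Class I molecules display peptides of the cell's own proteins to CD8 T cells, and 16 of 21 tested genes of that pathway rose (median log2 fold change 1.01). Among the non-classical class I genes, H2-Q7 was at 75.4 and 82.1 CPM in the CD11c+ libraries and 5.99, 3.64 and 4.58 CPM in the controls (adjusted p = 5.92e-06, log2 fold change 4.06 with SE 0.20; ENSMUSG00000060550, chromosome 17 from 35439155 to 35443773). H2-Q6 was at 188 and 229.6 CPM against 23.9, 12.96 and 15.2 CPM (adjusted p = 4.13e-05, log2 fold change 3.596 with SE 0.25). H2-Q5 was at 39.01 and 39.3 CPM against 4.403, 3.32 and 2.48 CPM (adjusted p = 6.44e-05, log2 fold change 3.51 with SE 0.27). The lowest CD11c+ value exceeds the highest control value several times in all 3, but these genes are near-identical neighbours on chromosome 17 and reads may be divided between them. H2-M3, which presents formylated peptides, was at 134 and 127 CPM against 43.4, 44.9 and 42.2 CPM (adjusted p = 1.51e-05, log2 fold change 1.59 with SE 0.091). Nlrc5, the transactivator of class I genes, was at 103 and 109.8 CPM against 20.9, 20.5 and 24.6 CPM (adjusted p = 2.93e-05, log2 fold change 2.28 with SE 0.14). B2m, the shared light chain, was at 2462 and 3085 CPM against 1385, 1413 and 1261 CPM (adjusted p = 0.00117, log2 fold change 1.03 with SE 0.13). Tap1, a subunit of the peptide transporter, was at 285 and 228 CPM against 83.5, 97.4 and 91.8 CPM (adjusted p = 0.000182, log2 fold change 1.496 with SE 0.13). Heavy chain, light chain, transporter and transactivator were thus all higher in both CD11c+ libraries; B2m and Tap1 were named after their values were seen.

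Class II molecules display engulfed proteins to CD4 T cells. Of 12 tested class II genes 8 rose (median log2 fold change 0.69). H2-Eb1, a class II beta chain, was at 45.8 and 51.4 CPM in CD11c+ cells and 10.3, 17.6 and 14.9 CPM in controls (adjusted p = 0.000989, log2 fold change 1.77 with SE 0.22). Cd74, the invariant chain that guides class II molecules to endosomes, was at 226 and 219 CPM against 51.6, 84.7 and 70.6 CPM (adjusted p = 0.00108, log2 fold change 1.69 with SE 0.21). H2-Ab1 was at 57.4 and 64.7 CPM against 16.3, 26.03 and 23.4 CPM (adjusted p = 0.00132, log2 fold change 1.48 with SE 0.19). For these 3 genes the groups do not overlap and the calls hold without any 1 library. Ctss, the protease that trims the invariant chain, was at 9314 and 7247 CPM against 5189, 5366 and 4609 CPM (adjusted p = 0.0123, log2 fold change 0.71 with SE 0.14). It does not pass the test when replicate 3 of the controls is left out (adjusted p = 0.0572). The count of 8 became 5 without replicate 1 or 3 of NMO CD11c- or replicate 1 or 2 of the controls and 4 without replicate 3 of the controls. It became 6 with the correction for GC content and length. Of 12 tested costimulatory and checkpoint ligands, Cd274, the ligand PD-L1, was the single member that rose, from 13.8, 17.8 and 18.4 CPM to 34.9 and 42.6 CPM (adjusted p = 0.00156, log2 fold change 1.22 with SE 0.16). The share of 1 of 12 is near the 6.85% of all genes. Cd40 was at 1.63 and 2.47 CPM against 0.367, 0.107 and 0.785 CPM (adjusted p = 0.0592) and Icosl at 257 and 287 CPM against 204, 243 and 212 CPM (adjusted p = 0.109).

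**Figure D2:**
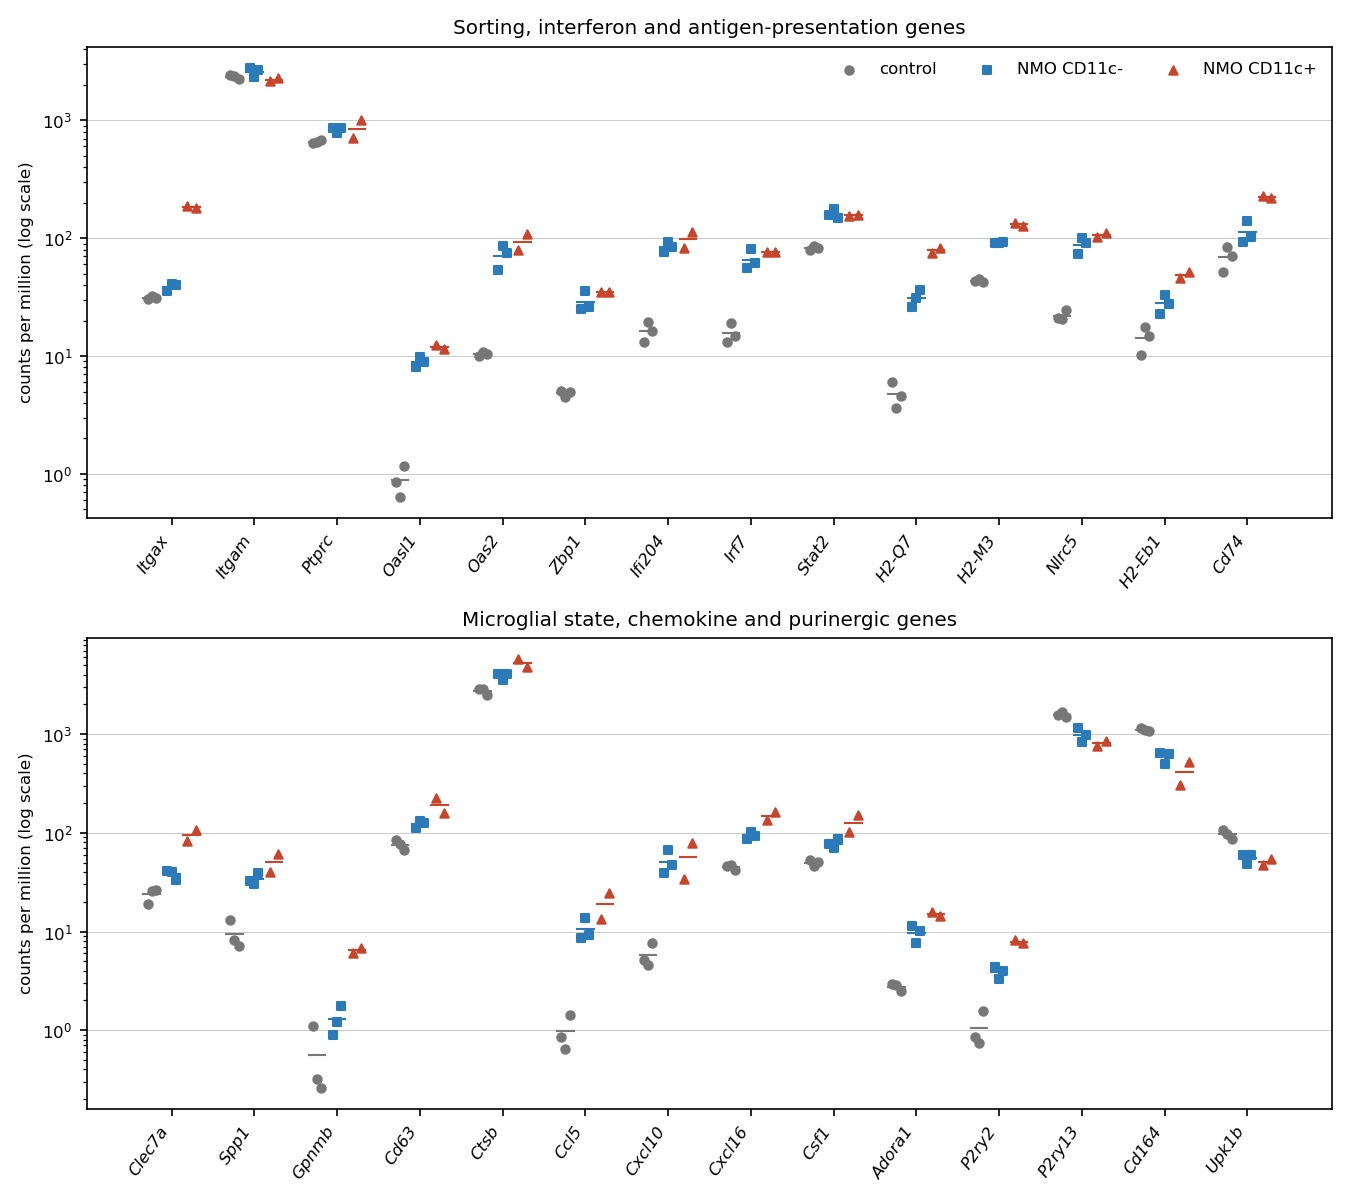
Level of 28 genes in each of the 8 libraries in CPM on a log axis, with 1 point per library and a short line at each group's mean (grey circles control, blue squares NMO CD11c-, red triangles NMO CD11c+). Itgax separates the CD11c+ libraries from both other groups, the interferon genes are high in both disease subsets, and P2ry13, Cd164 and Upk1b are lower in the disease libraries than in the controls.

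Genes of the disease-associated microglia signature, known from microglia around amyloid plaques, rose in 20 of 31 tested members, and the median log2 fold change of the 31 was 1.04. Itgax is one of the 20 and was the basis of the sort. Clec7a, the beta-glucan receptor dectin-1, was at 83.3 and 106 CPM in CD11c+ cells and 19.2, 25.9 and 26.2 CPM in controls (adjusted p = 0.000102, log2 fold change 1.996 with SE 0.17; ENSMUSG00000079293, chromosome 6 from 129461591 to 129472779). Spp1, the secreted phosphoprotein osteopontin, was at 40.04 and 61.1 CPM against 13.2, 8.14 and 7.06 CPM (adjusted p = 0.000551, log2 fold change 2.42 with SE 0.26). Gpnmb, a glycoprotein of lysosomes and phagosomes, was at 6.13 and 6.87 CPM against 1.101, 0.321 and 0.262 CPM (adjusted p = 0.00223, log2 fold change 3.502 with SE 0.50). Every CD11c+ value of these genes is above every control value. Cd52, a small glycoprotein anchored by glycosylphosphatidylinositol, was at 132 and 136 CPM against 42.9, 44.99 and 47.6 CPM (adjusted p = 0.00011, log2 fold change 1.57 with SE 0.13). Csf1, a growth factor on which microglia themselves depend, was at 102 and 153 CPM against 52.95, 46.5 and 50.7 CPM (adjusted p = 0.000964, log2 fold change 1.35 with SE 0.16). The signature had a mean log2 CPM of 7.60 and 7.62 in the CD11c+ libraries, 7.07, 7.13 and 7.06 in the NMO CD11c- libraries and 6.27, 6.42 and 6.25 in the controls, and none of these ranges overlap. Between the CD11c+ and CD11c- cells of NMO mice 4 of its 31 members were called, namely Itgax, Axl, Clec7a and Cst7.

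Lysosomal genes were raised in breadth and mostly by less than 2-fold. Of 48 tested proteases, hydrolases and membrane proteins of the lysosome 24 rose and 1 fell, with a median log2 fold change of 0.47. Cd63, a tetraspanin of late endosomes and lysosomes, was at 226 and 159 CPM against 84.1, 76.9 and 66.6 CPM (adjusted p = 0.000827, log2 fold change 1.34 with SE 0.16). Ctsb, the cysteine protease cathepsin B, whose exons overlap those of Fdft1, was at 5718 and 4807 CPM against 2882, 2874 and 2509 CPM (adjusted p = 0.00252, log2 fold change 0.93 with SE 0.14). Cst7, an inhibitor of lysosomal cathepsins, was at 40.9 and 35.9 CPM against 5.14, 6.75 and 3.79 CPM (adjusted p = 0.000153, log2 fold change 2.86 with SE 0.25). Other raised members, named after their values were seen, include the cathepsin Ctsh at a log2 fold change of 0.88 and the sugar-cleaving enzymes Glb1, Naglu and Man2b1 at 0.72, 0.802 and 0.81. Ctso was the member called lower, at -0.65, and it is lost when replicate 1 of CD11c+, replicate 3 of NMO CD11c- or replicate 1, 2 or 3 of the controls is left out (adjusted p from 0.056 to 0.0953). The count of 24 became 14 without replicate 1 of the controls, 12 without replicate 2 of the controls and 11 without replicate 3 of the controls. Of the proton pump and its regulators 2 of 22 tested genes rose, a share near the 6.85% of all genes. The count of 2 became 8 without replicate 2 of CD11c+ and 1 without replicate 2 or 3 of the controls. Mcoln1, the lysosomal calcium channel mucolipin 1, was at 141 and 139.9 CPM against 98.2, 91.4 and 90.6 CPM (adjusted p = 0.00617, log2 fold change 0.59 with SE 0.10). The pump subunit Atp6v1f had a log2 fold change of 0.68, which is lost when replicate 1 of CD11c+ or replicate 2 or 3 of the controls is left out (adjusted p from 0.0653 to 0.0767).

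Among genes of lipid uptake, transport and efflux 8 of 26 tested members rose (median log2 fold change 0.47). Ch25h, which makes 25-hydroxycholesterol, was at 9.805 and 15.2 CPM against 0.245, 1.5 and 0.523 CPM (adjusted p = 0.00086, log2 fold change 3.96 with SE 0.47). Lpl, which releases fatty acids from lipoproteins, was at 144 and 169.8 CPM against 60.7, 85.8 and 86.6 CPM (adjusted p = 0.0035, log2 fold change 1.02 with SE 0.16). Npc2, which carries cholesterol out of the lysosome lumen, was at 665 and 606 CPM against 426, 418 and 379.6 CPM (adjusted p = 0.00695, log2 fold change 0.64 with SE 0.11). The groups do not overlap for these genes. Apoe differed between the CD11c+ libraries themselves, at 5360 and 2553 CPM, and both lie above the controls at 408, 817 and 669 CPM (log2 fold change 2.65, adjusted p = 0.00122). The list's count of 8 became 4 without replicate 1 or 3 of the controls. In the pathway that makes cholesterol, edgeR called 0 of 21 tested genes, with 2 higher and 0 lower at an unadjusted p under 0.05, and DESeq2 and the exact test also called 0. The log2 fold changes of the 21 ran from -0.35 to 0.66; Hmgcs1, an early enzyme of the pathway, was at 27.4 and 26.1 CPM against 29.4, 36.6 and 29.7 CPM.

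Chemokines, the secreted proteins that attract immune cells, had a median log2 fold change of 1.40 over 15 tested genes, of which 6 rose. Ccl5, an attractant of T cells and monocytes, was at 13.5 and 24.5 CPM in CD11c+ cells and 0.856, 0.643 and 1.44 CPM in controls (adjusted p = 0.000182, log2 fold change 4.29 with SE 0.39; ENSMUSG00000035042, chromosome 11 from 83525778 to 83530518). Cxcl10, a ligand of CXCR3 whose exons overlap those of Art3, was at 34.1 and 79.1 CPM against 5.14, 4.61 and 7.72 CPM (adjusted p = 0.000694, log2 fold change 3.298 with SE 0.37). Cxcl9, another CXCR3 ligand, was at 5.11 and 11.3 CPM against 1.101, 0.857 and 0.785 CPM (adjusted p = 0.0021, log2 fold change 3.15 with SE 0.44). Cxcl16, the ligand of CXCR6, was at 135 and 162 CPM against 45.98, 47.4 and 41.6 CPM (adjusted p = 4.13e-05, log2 fold change 1.73 with SE 0.12). All values of the CD11c+ libraries lie above the controls, and for Ccl5, Cxcl9 and Cxcl10 CD11c+ replicate 2 is higher than replicate 1. Cxcl13, a B cell attractant named after its value was seen, had 42 counts in the CD11c+ libraries and 3 in the controls, a ratio of 33.3 per scaled library (95% interval 10.7 to 168, counting error only). The count of 6 became 11 without replicate 1 of CD11c+.

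Of 38 tested cytokines and cytokine receptors 8 rose (median log2 fold change 0.34). Csf2ra, a chain of the receptor for GM-CSF, was at 622 and 365 CPM against 168, 176 and 192 CPM (adjusted p = 0.00209, log2 fold change 1.46 with SE 0.21). Tnfsf8, the ligand of CD30, was at 8.58 and 14.8 CPM against 2.32, 3.96 and 3.4 CPM (adjusted p = 0.00814, log2 fold change 1.85 with SE 0.33). Il1b, which encodes interleukin 1 beta, was at 9.19 and 21.1 CPM against 4.77, 5.46 and 3.79 CPM (adjusted p = 0.0115, log2 fold change 1.698 with SE 0.33). This call is lost when replicate 3 of the controls is left out (adjusted p = 0.0565). CD11c+ replicate 1 is the lower of the CD11c+ libraries for Tnfsf8 and Il1b and the higher one for Csf2ra. The count of 8 became 5 without replicate 1 of NMO CD11c- or replicate 2 of the controls, 4 without replicate 1 of the controls and 3 without replicate 3 of the controls. In the NF-kB pathway 4 of 21 tested genes rose (7 without CD11c+ replicate 2). The subunit Relb was at 83.8 and 64.3 CPM against 34.4, 37.9 and 34 CPM (adjusted p = 0.00117, log2 fold change 1.06 with SE 0.13). The subunit Nfkb2 was at 99.1 and 97.95 CPM against 70.2, 64.9 and 65.5 CPM (adjusted p = 0.0068, log2 fold change 0.56 with SE 0.097). With the correction for GC content and length the Nfkb2 call is lost (adjusted p = 0.0962). The co-regulator Bcl3 had a log2 fold change of 1.36 (adjusted p = 0.00391) and the inhibitor Tnip1 one of 0.73 (adjusted p = 0.00885). Relb and Nfkb2 are the 2 members of the non-canonical arm of the pathway that bind DNA together.

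The acute-phase protein gene Saa3, a member of the serum amyloid A family, showed the highest fitted fold change among the genes with a mean of 5 CPM or more in the group where they are higher. It was at 9.396 and 21.9 CPM in the CD11c+ libraries and at 0.122, 0.107 and 0 CPM in the controls, with 170 counts against 2, a ratio of 202 per scaled library (95% interval 55.1 to 1684, counting error only; adjusted p = 0.000396). Its levels in the NMO CD11c- libraries were 16.5, 35.1 and 34.7 CPM, which overlap those of the CD11c+ libraries. Chst2, a sulfotransferase of carbohydrate chains, was at 49.02 and 44.04 CPM against 4.77, 5.79 and 4.32 CPM in controls (adjusted p = 5.92e-06, log2 fold change 3.22 with SE 0.16) and 15.1, 15.4 and 17.2 CPM in NMO CD11c- cells. For Chst2 the 3 groups do not overlap, and the CD11c+ libraries are highest. Psrc1, a microtubule-binding protein, was at 4.902 and 5.64 CPM against 0.612, 0.428 and 0.131 CPM (adjusted p = 0.00115, log2 fold change 3.68 with SE 0.46).

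Receptors that take up dying cells and debris changed in part. Over all genes 6.85% were called higher. Without CD11c+ replicate 2 the counts of most lists were higher, as they were over all genes. That fit holds replicate 1 as its only CD11c+ library, the one that stood apart in its relation to GC content. Of 15 tested TAM, phosphatidylserine and scavenger receptors 3 rose, which became 5 without replicate 2 of CD11c+. Axl was at 551 and 430.0 CPM against 35.3, 64.9 and 55.7 CPM in controls (adjusted p = 4.21e-05). Cd300lf, a receptor for phosphatidylserine, was at 57.4 and 57.1 CPM against 6.48, 8.03 and 12.3 CPM (adjusted p = 0.000576, log2 fold change 2.69 with SE 0.29). Cd36, a receptor for oxidised lipids, was at 7.76 and 6.695 CPM against 2.08, 3.54 and 3.01 CPM (adjusted p = 0.0189, log2 fold change 1.32 with SE 0.28). The call does not hold when replicate 1 of CD11c+ or replicate 1 or 3 of the controls is left out (adjusted p from 0.0626 to 0.0722). Of 9 tested Fc receptor genes, Fcgr4, an activating receptor for IgG, rose from 16.5, 17.5 and 13.6 CPM to 48 and 54.3 CPM (adjusted p = 8.31e-05, log2 fold change 1.69 with SE 0.13). Fcer1g, the signalling chain of Fc receptors, was at 531 and 438 CPM against 376, 370.5 and 296 CPM (adjusted p = 0.0622). Fcrls was at 1935 and 2102 CPM against 2812, 2613 and 2330 CPM (adjusted p = 0.14). Among 17 tested complement genes, C4b and Itgax, as the alpha chain of complement receptor 4, were called. C4b, from which the C3 and C5 convertases of the classical route are built, was at 120.1 and 119 CPM against 12.6, 19.6 and 15.4 CPM (log2 fold change 2.91, adjusted p = 1.51e-05). C3ar1, the receptor for the fragment C3a, was at 326 and 317 CPM against 251, 268 and 254 CPM and did not pass the test (adjusted p = 0.0691). Itgax was the basis of the sort, so nothing is read from its place in the complement count. Without CD11c+ replicate 2 the complement and Fc receptor counts were 5 and 3.

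Some sensing receptors were called higher and some lower, where 6.85% of all genes were called higher and 3.36% lower. For the pattern-recognition receptors the share called higher is near that of all genes. Among 23 tested pattern-recognition receptors 2 rose and 2 fell; the higher ones became 6 without replicate 2 of CD11c+, 1 without replicate 2 of the controls and 0 without replicate 1 or 3 of the controls, and the lower ones 7 without replicate 2 of CD11c+ and 1 without replicate 1 of CD11c+, replicate 1 or 3 of NMO CD11c- or replicate 1, 2 or 3 of the controls. Tlr5, the receptor for flagellin, was at 17.2 and 15.2 CPM in CD11c+ cells and 44.8, 39.7 and 48.6 CPM in controls (adjusted p = 0.000799, log2 fold change -1.46 with SE 0.17). Tlr2, which binds lipoproteins together with Tlr1 or Tlr6, was at 302 and 494 CPM against 204, 219 and 215 CPM (adjusted p = 0.0132, log2 fold change 0.91 with SE 0.18). It does not pass the test when replicate 1, 2 or 3 of the controls is left out (adjusted p from 0.0501 to 0.0596). Tlr4, the receptor for lipopolysaccharide, was at 56.4 and 107 CPM against 130.5, 162 and 162 CPM (adjusted p = 0.0379, log2 fold change -0.89 with SE 0.23). This call is lost when replicate 1 of CD11c+, replicate 1 or 3 of NMO CD11c- or replicate 1, 2 or 3 of the controls is left out (adjusted p from 0.0589 to 0.119). The Tlr5 groups are far apart, whereas for Tlr2 and Tlr4 CD11c+ replicate 2 is well above replicate 1. Of 17 tested C-type lectins and Siglecs 4 rose and 2, Siglech and Clec5a, fell. The count of 2 became 1 without replicate 3 of the controls and 0 without replicate 1 of CD11c+, replicate 1 or 3 of NMO CD11c- or replicate 1 or 2 of the controls. Cd22, an inhibitory sialic acid receptor, was at 63.5 and 56.02 CPM against 19.7, 17.4 and 16.5 CPM (adjusted p = 4.13e-05, log2 fold change 1.74 with SE 0.12). Siglecf was at 73.5 and 83.9 CPM against 39.9, 40.6 and 40.3 CPM (adjusted p = 0.000527, log2 fold change 0.97 with SE 0.10). Siglec1, the macrophage receptor sialoadhesin, was at 75.4 and 47.4 CPM against 8.68, 15.5 and 15.4 CPM (adjusted p = 0.000754, log2 fold change 2.21 with SE 0.25). All 3 Siglecs have groups that do not overlap. In TREM2 and TYROBP signalling, through which microglia sense lipids, 3 of 22 tested genes rose. Treml2 was at 51.7 and 58.5 CPM against 18.6, 20.4 and 20.4 CPM (adjusted p = 0.000243, log2 fold change 1.48 with SE 0.14). The adaptor Tyrobp had a log2 fold change of 0.64 and is lost when replicate 1 of CD11c+, replicate 1 or 3 of NMO CD11c- or replicate 1, 2 or 3 of the controls is left out (adjusted p from 0.0518 to 0.101). Blnk, a linker protein, had one of 0.39 and is lost when replicate 1 or 3 of NMO CD11c- or replicate 1, 2 or 3 of the controls is left out (adjusted p from 0.0659 to 0.122). The count of 3 became 6 without replicate 2 of CD11c+ and 1 without replicate 1 or 3 of NMO CD11c- or replicate 1, 2 or 3 of the controls.

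Secreted growth and repair factors are a group for which CD11c+ microglia are known, since they supply such factors to developing oligodendrocytes. Of 21 tested genes 7 rose and 1 fell (median log2 fold change 0.35). Fn1, the matrix protein fibronectin, was at 25.1 and 20.3 CPM against 5.01, 3.64 and 3.92 CPM (adjusted p = 0.000668, log2 fold change 2.43 with SE 0.27). Pdgfa, a mitogen of oligodendrocyte precursors, was at 45.4 and 43.3 CPM against 21.2, 22.2 and 24.1 CPM (adjusted p = 0.00156, log2 fold change 0.98 with SE 0.13). Igfbp4, a binding protein of insulin-like growth factors, was at 91.1 and 81.9 CPM against 50.5, 52.2 and 48 CPM (adjusted p = 0.00297, log2 fold change 0.78 with SE 0.12). In all 3 the CD11c+ libraries are above every control. Igf1, a growth factor and member of this list named after its value was seen, was at 6.13 and 7.22 CPM against 2.45, 4.29 and 1.7 CPM and did not pass the test (adjusted p = 0.0627). The member that fell was Hbegf, a ligand of the epidermal growth factor receptor, with a log2 fold change of -1.69. It too was named after its value was seen, and it is lost when replicate 2 of the controls is left out (adjusted p = 0.0635).

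Energy metabolism showed small shifts. Of 58 tested nuclear genes of the respiratory chain 11 rose (median log2 fold change 0.36). Ndufa6, a subunit of complex I, was at 44.7 and 34.4 CPM against 14.9, 16.1 and 14.8 CPM (adjusted p = 0.000452, log2 fold change 1.37 with SE 0.14). Uqcrh, of complex III, was at 43.7 and 53.7 CPM against 26.1, 24.1 and 22.4 CPM (adjusted p = 0.00167, log2 fold change 1.01 with SE 0.14). Cox8a, of complex IV, was at 78.8 and 63.2 CPM against 40.97, 40.1 and 38.7 CPM (adjusted p = 0.00383, log2 fold change 0.83 with SE 0.13). These 3 calls hold without any 1 library, but the count of 11 became 26 without replicate 2 of CD11c+, 7 without replicate 1 or 3 of NMO CD11c-, 6 without replicate 1 of CD11c+ or replicate 1 or 3 of the controls and 5 without replicate 2 of the controls. Of 7 tested mitochondrially encoded genes mt-Cytb and mt-Co1 rose, at log2 fold changes of 0.58 and 0.67. The former is lost when replicate 1 of the controls (adjusted p = 0.0617) or replicate 2 of the controls (0.0751) is left out, the latter when replicate 1 or 3 of NMO CD11c- or replicate 1 or 2 of the controls is left out (adjusted p from 0.0505 to 0.105). Of 31 tested genes of glycolysis and hypoxia 3 rose and 1 fell, shares near the 6.85% and 3.36% of all genes. The one that fell, Slc2a5, a fructose transporter typical of microglia, was at 322 and 289 CPM against 545, 518 and 459 CPM (adjusted p = 0.00983, log2 fold change -0.73 with SE 0.14). Pfkfb3, Slc16a3 and Pfkl rose by 0.52, 0.48 and 0.73 on the log2 scale, and each call is lost without control replicate 1, 2 or 3, Slc16a3 and Pfkl also without other libraries. The count of 3 became 14 without replicate 2 of CD11c+, 1 without replicate 1 of CD11c+ or replicate 1 or 3 of NMO CD11c- and 0 without replicate 1, 2 or 3 of the controls. In the 26S proteasome 1 of 31 tested genes, Psmd1, was called lower, a share near the 3.36% of all genes. Psmd1 was at 60.3 and 60.96 CPM against 88.3, 89.8 and 87.1 CPM (adjusted p = 0.0116, log2 fold change -0.54 with SE 0.10). The call does not hold when replicate 2 of the controls is left out (adjusted p = 0.0509).

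Iron, heme and oxidant genes rose in 6 of 33 tested members. Cp, the ferroxidase ceruloplasmin, was at 16.6 and 18.7 CPM against 5.26, 9.43 and 6.02 CPM (adjusted p = 0.0061, log2 fold change 1.34 with SE 0.23). Gpx3, a secreted glutathione peroxidase, was at 5.11 and 7.22 CPM against 1.22, 2.04 and 1.96 CPM (adjusted p = 0.00694, log2 fold change 1.82 with SE 0.32). Fth1, the ferritin heavy chain, was at 1405 and 1674 CPM against 1032, 766 and 837 CPM (adjusted p = 0.0214, log2 fold change 0.81 with SE 0.18). It does not pass the test when replicate 2 of the controls (adjusted p = 0.0876) or replicate 3 of the controls (0.0877) is left out. All of these have CD11c+ values above every control. The count of 6 became 3 without replicate 1 of CD11c+ and 2 without replicate 2 or 3 of the controls. In the cell cycle 3 of 44 tested genes rose and 1 fell. The higher ones became 6 without replicate 2 of CD11c+ or replicate 2 of NMO CD11c- and 0 without replicate 1, 2 or 3 of the controls, and the lower one 4 without replicate 2 of CD11c+ and 2 without replicate 2 of the controls. Ccnd1, the G1 cyclin D1, was at 52.5 and 71.3 CPM against 105, 129 and 125 CPM (adjusted p = 0.00839, log2 fold change -0.95 with SE 0.17). Cdk1, E2f1 and Cdkn1a rose by 1.31, 1.55 and 1.55 on the log2 scale, and all 3 calls are lost without control replicate 1, 2 or 3 and without 1 of the CD11c+ libraries, Cdk1 and E2f1 without replicate 1 and Cdkn1a without replicate 2. Cdkn1a is also lost with the correction for GC content and length (adjusted p = 0.0565). The share of 3 of 44 is near the 6.85% of all genes.

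The homeostatic signature of microglia moved down. Of 44 tested members 9 fell and 1 rose, with a median log2 fold change of -0.31. P2ry13, a receptor for ADP, was at 765 and 849 CPM in CD11c+ cells and 1566, 1682 and 1502 CPM in controls (adjusted p = 0.0049, log2 fold change -0.97 with SE 0.16). Cd164, the sialomucin endolyn, was at 305 and 526 CPM against 1149, 1106 and 1075 CPM (adjusted p = 0.00364, log2 fold change -1.42 with SE 0.22; ENSMUSG00000019818, chromosome 10 from 41519414 to 41531048). Upk1b, a tetraspanin, was at 47.6 and 53.9 CPM against 108, 97.7 and 86.3 CPM (adjusted p = 0.00272, log2 fold change -0.94 with SE 0.14). Both CD11c+ libraries lie below every control for all 3 genes, and the calls hold without any 1 library. Others that fell, named after their values were seen, were Cx3cr1, the fractalkine receptor, at 4564 and 4543 CPM against 7468, 7810 and 7115 CPM (log2 fold change -0.71), Siglech (-0.69) and Gpr34 (-0.84), a receptor for lysophosphatidylserine. Cx3cr1 is lost when replicate 2 of the controls is left out (adjusted p = 0.0516). Gpr34 is lost when replicate 1 of CD11c+, replicate 1 or 3 of NMO CD11c- or replicate 1, 2 or 3 of the controls is left out (adjusted p from 0.0516 to 0.102), and Siglech when replicate 1 of CD11c+, replicate 1 or 3 of NMO CD11c- or replicate 1, 2 or 3 of the controls is left out (adjusted p from 0.0552 to 0.0972). The member that rose was Lag3, at 1116 and 799.5 CPM against 467, 412 and 373 CPM (adjusted p = 0.00138, log2 fold change 1.198 with SE 0.16). Tmem119, which belongs to the same signature and was likewise picked after its value was seen, was at 2094 and 1623 CPM against 2485, 2791 and 2439 CPM and did not pass the test (adjusted p = 0.0684). The count of 9 became 17 without replicate 2 of CD11c+ and 5 without replicate 2 of the controls, and 17 with a correction for GC content and transcript length.

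**Figure D3:**
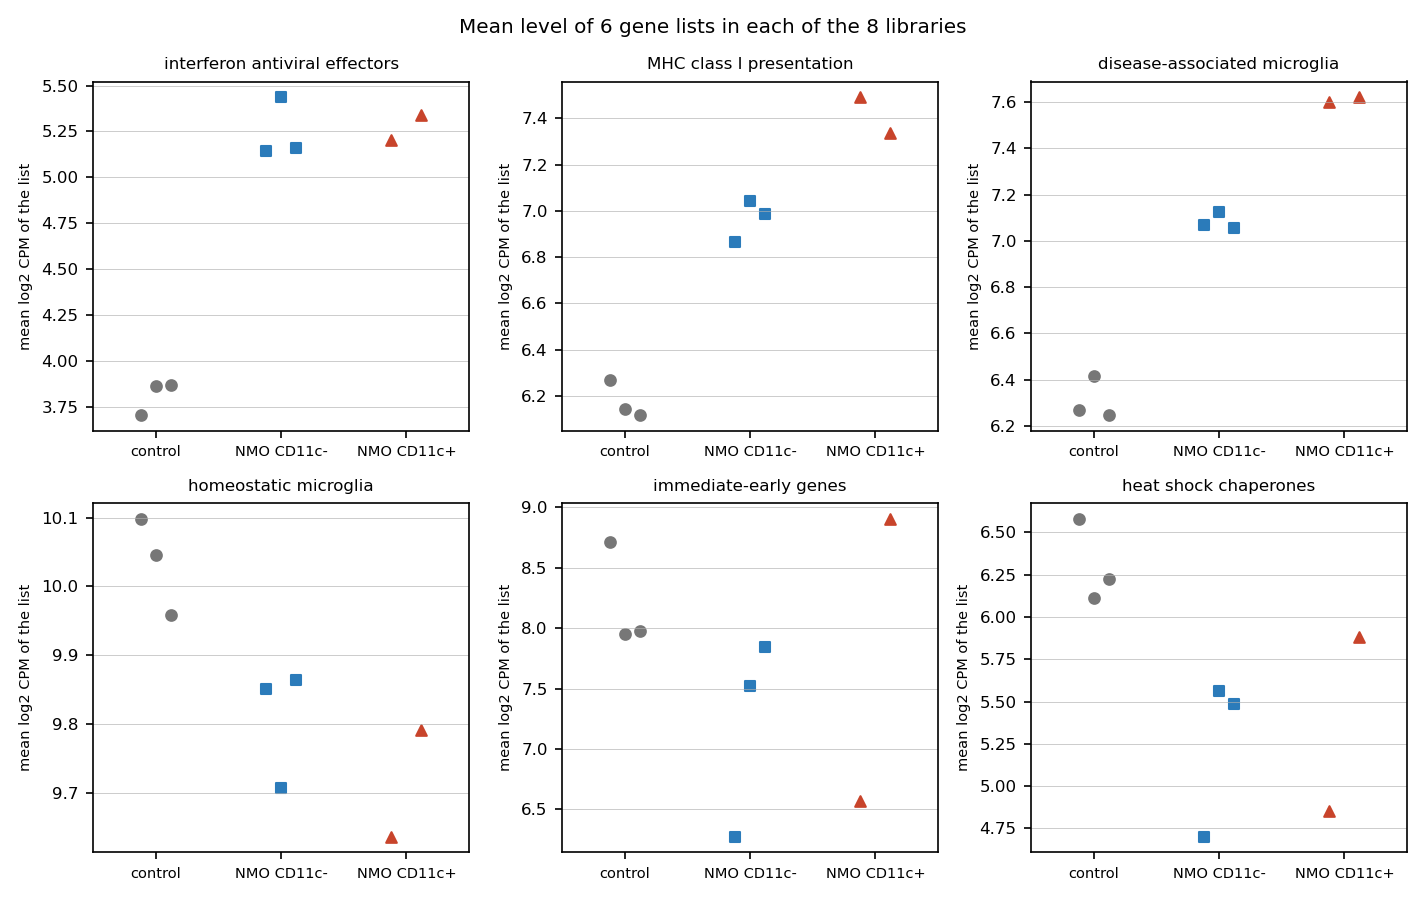
Mean log2 CPM of the tested members of 6 gene lists (vertical axes, which differ in range and do not start at 0) in each of the 8 libraries, 1 point per library, by group. The interferon, class I and disease-associated lists are higher in both disease groups than in every control, the homeostatic list is lower, and in the immediate-early list the CD11c+ libraries lie at 6.57 and 8.90, below and above all controls.

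Nucleotide receptors and ion channels split. Of 31 tested genes 8 rose and 2, P2ry12 and P2ry13, fell. Adora1, the adenosine A1 receptor, was at 15.9 and 14.4 CPM against 2.94, 2.89 and 2.48 CPM (adjusted p = 0.000214, log2 fold change 2.44 with SE 0.23). P2ry2, a receptor for UTP and ATP, was at 8.17 and 7.58 CPM against 0.856, 0.7499 and 1.57 CPM (adjusted p = 0.000787, log2 fold change 2.895 with SE 0.34). P2rx4, an ATP-gated channel, was at 169.9 and 154 CPM against 75.2, 91.9 and 82.7 CPM (adjusted p = 0.000703, log2 fold change 0.96 with SE 0.11). Receptors for ADP were thus lower, and these receptors for adenosine, UTP and ATP higher, in both CD11c+ libraries. Kcnj10, an inward rectifier potassium channel, was at 30.8 and 29.6 CPM against 8.68, 11.03 and 11.4 CPM (adjusted p = 0.000288, log2 fold change 1.54 with SE 0.15). The count of 8 became 13 without replicate 2 of CD11c+ and 5 without replicate 2 of the controls. In TGF-beta signalling 2 of 24 tested genes fell and 1 rose, where 3.36% of all genes were called lower and 6.85% higher. Itgav, an integrin chain that takes part in activating the latent cytokine, had a log2 fold change of -0.61, the receptor Tgfbr1 one of -0.72, and Ltbp3, a binding protein of the latent form, one of 0.87. Itgav is lost when replicate 1 of CD11c+ or replicate 2 or 3 of the controls is left out (adjusted p from 0.0547 to 0.0732). Tgfbr1 is lost when replicate 1 of CD11c+, replicate 1 or 3 of NMO CD11c- or replicate 1, 2 or 3 of the controls is left out (adjusted p from 0.0582 to 0.12), and Ltbp3 when replicate 1 of CD11c+, replicate 1, 2 or 3 of NMO CD11c- or replicate 1, 2 or 3 of the controls is left out (adjusted p from 0.0589 to 0.291). The count of 2 became 6 without replicate 2 of CD11c+, 1 without replicate 1 or 3 of NMO CD11c- or replicate 1 of the controls and 0 without replicate 1 of CD11c+ or replicate 2 or 3 of the controls. Of 28 tested microglial transcription factors Etv5 and Maf fell, at log2 fold changes of -0.61 and -0.47, where 3.36% of all genes were called lower. The list had 6 lower and 4 higher members without CD11c+ replicate 2. Etv5 is lost when replicate 1 of CD11c+, replicate 1 of NMO CD11c- or replicate 1, 2 or 3 of the controls is left out (adjusted p from 0.0577 to 0.11), and Maf when replicate 1 of CD11c+, replicate 1, 2 or 3 of NMO CD11c- or replicate 1, 2 or 3 of the controls is left out (adjusted p from 0.0557 to 0.15).

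Adhesion and guidance molecules changed in a few members. Of 28 tested integrins and adhesion genes 3 rose and 3 fell; the higher ones became 8 without replicate 2 of CD11c+, and the lower ones 5 without replicate 2 of CD11c+ and 1 without replicate 3 of the controls. Itgax, the basis of the sort, is one of the 3 that rose, and 6.85% of all genes were called higher. Itga5, the alpha chain of the fibronectin receptor, was at 89.3 and 83.2 CPM against 60.2, 61.5 and 57.3 CPM (adjusted p = 0.00936, log2 fold change 0.53 with SE 0.098). Itga9 was at 131 and 124 CPM against 190.3, 188 and 205 CPM (adjusted p = 0.0122, log2 fold change -0.61 with SE 0.12). This call is lost when replicate 3 of the controls is left out (adjusted p = 0.0556). Of 16 tested semaphorins, plexins and neuropilins 2 fell and 1, Sema4d, rose. The count of 1 became 6 without replicate 2 of CD11c+, 3 without replicate 2 of NMO CD11c- and 0 without replicate 1 of CD11c+, replicate 1 or 3 of NMO CD11c- or replicate 1, 2 or 3 of the controls, and that of 2 became 1 without replicate 1 of the controls. Sema4b was at 27.4 and 16.7 CPM against 66.3, 65.8 and 67.5 CPM (adjusted p = 0.00183, log2 fold change -1.601 with SE 0.22). Sema6d was at 20.4 and 12.2 CPM against 47.9, 36.6 and 36.8 CPM (adjusted p = 0.0148, log2 fold change -1.32 with SE 0.27). The call does not hold when replicate 1 of the controls is left out (adjusted p = 0.0563). The groups do not overlap for Sema4b or Sema6d. Further genes that fell and were named after their values were seen were Gpr165 and Bank1. Gpr165, an orphan receptor, was at 42.7 and 31.7 CPM against 133, 117 and 116 CPM (adjusted p = 0.00103, log2 fold change -1.72 with SE 0.21). Bank1, a B cell scaffold protein, was at 19.8 and 25.9 CPM against 74.7, 68.2 and 58.2 CPM (adjusted p = 0.00171, log2 fold change -1.55 with SE 0.21).

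Immediate-early genes, which respond within minutes to stimulation and to tissue dissociation, separated the CD11c+ libraries from each other and not the groups. EdgeR called 0 of 31 tested members, with 1 higher and 0 lower at an unadjusted p under 0.05, and DESeq2 and the exact test also called 0. Their mean log2 CPM was 6.57 in CD11c+ replicate 1 and 8.90 in replicate 2, against 8.71, 7.96 and 7.97 in the controls. Fos itself, named after its value was seen, was at 1225 and 6305 CPM in the CD11c+ libraries and 9500, 3870 and 4486 CPM in the controls. Without CD11c+ replicate 2, 13 members were called lower, and without replicate 1, 2 were called higher. The part of this difference between the libraries in the results above was not tested. Among heat shock chaperones 2 of 17 fell, which became 9 without replicate 2 of CD11c+, 1 without replicate 3 of NMO CD11c- or replicate 1, 2 or 3 of the controls and 0 without replicate 1 of CD11c+. Hsph1 was at 25.9 and 28.4 CPM against 89.4, 51.7 and 53.2 CPM (adjusted p = 0.0139, log2 fold change -1.25 with SE 0.25). It does not pass the test when replicate 1 of CD11c+ is left out (adjusted p = 0.0595). Hspa1b, which has a near-identical neighbour in Hspa1a, was at 10.2 and 91.4 CPM against 481, 378 and 561 CPM (adjusted p = 0.0451, log2 fold change -3.21 with SE 0.87). This call is lost when replicate 1 of CD11c+, replicate 3 of NMO CD11c- or replicate 1, 2 or 3 of the controls is left out (adjusted p from 0.0712 to 0.12). In the unfolded protein and p53 response 2 of 30 rose, a share near the 6.85% of all genes, and 2 fell. The higher ones became 1 without replicate 1, 2 or 3 of NMO CD11c- and 0 without replicate 1, 2 or 3 of the controls, and the lower ones 9 without replicate 2 of CD11c+ and 1 without replicate 1 of CD11c+ or replicate 1 or 2 of the controls. Gadd45g, a growth arrest gene, was at 27.6 and 32.1 CPM against 49.6, 66.3 and 55.3 CPM (adjusted p = 0.00936, log2 fold change -0.94 with SE 0.17). Xbp1, a factor of the unfolded protein response, was at 133 and 175 CPM against 231, 258 and 219 CPM (adjusted p = 0.0211, log2 fold change -0.61 with SE 0.14). The call does not hold when replicate 1 of CD11c+ or replicate 1 or 2 of the controls is left out (adjusted p from 0.0563 to 0.0822).

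The largest drops were in genes of neutrophil granules. Of 18 tested neutrophil markers 11 fell and 1, Acod1, which makes itaconate, rose, and the median log2 fold change was -5.71 (-5.12 with genes at 0 set to the bound that 3 counts give). S100a9, a subunit of calprotectin, was at 3.27 and 4.93 CPM in the CD11c+ libraries and 238, 307 and 456 CPM in the controls (adjusted p = 0.00173, log2 fold change -6.33 with SE 0.86; ENSMUSG00000056071, chromosome 3 from 90692632 to 90695721). Mmp9, a gelatinase, was at 1.02 and 0.352 CPM against 14.9, 23.7 and 48.3 CPM (adjusted p = 0.00222, log2 fold change -5.403 with SE 0.77). Ltf, lactoferrin, was at 4.698 and 4.76 CPM against 190.2, 250.3 and 403 CPM (adjusted p = 0.00223, log2 fold change -5.89 with SE 0.84). Ly6g, which defines neutrophils and was named after its value was seen, had 0 counts in both CD11c+ libraries and 114 in the controls, at least 15.97-fold lower with a floor of 3 counts over the group. Its call is lost when replicate 1 of CD11c+ or replicate 2 or 3 of the controls is left out (adjusted p from 0.0595 to 0.0843). Mmp8 had 1 count against 519, a ratio of 0.00459 per scaled library (95% interval 0.000116 to 0.0257, counting error only). Every control held these transcripts, and the CD11c+ libraries held few or none. The 15 genes with the largest drops by the naming rule were, besides S100a9, Mmp9, Ltf and Mmp8, the genes S100a8, Ngp, Camp, Lcn2, Retnlg, Chil3, Hp, Itgb2l, Cd177, Anxa1 and Gda. Of these Chil3, Camp, Lcn2 and Anxa1 lose their call without CD11c+ replicate 1 (adjusted p from 0.0607 to 0.1) and Hp, Itgb2l, Cd177 and Gda without that library, CD11c+ replicate 2 or control replicate 3, and all but Cd177 also without others. Gda also loses its call with the correction for GC content and length (adjusted p = 0.0537). Acod1 had a log2 fold change of 2.51 and is lost when replicate 1 or 2 of CD11c+, replicate 1, 2 or 3 of NMO CD11c- or replicate 1, 2 or 3 of the controls is left out (adjusted p from 0.0583 to 0.139). The count of 11 became 7 without replicate 1 of CD11c+.

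Summed over 20 neutrophil markers, the level was 19.8 and 25.5 CPM in the CD11c+ libraries, 938, 1185 and 1937 CPM in the controls and 3327, 11730 and 2258 CPM in the NMO CD11c- libraries, with 8 and 4 of the 20 at 0 in the CD11c+ libraries. Monocyte markers, 16 in all, summed to 93.6 and 84.9 CPM in CD11c+ cells, 144, 180 and 282 CPM in controls and 488, 1616 and 349 CPM in NMO CD11c- cells. Of 15 tested monocyte genes 2 rose and 3 fell: Chil3, Cd177 and Hp, which neutrophils also express, were lower, and Fn1 and Ms4a4c were higher. The count of 3 became 5 without replicate 2 of NMO CD11c-, 1 without replicate 2 of CD11c+ or replicate 3 of the controls and 0 without replicate 1 of CD11c+. Ms4a4c was at 10.01 and 13.04 CPM against 1.47, 3.21 and 1.44 CPM (adjusted p = 0.00185, log2 fold change 2.46 with SE 0.34). The levels of neutrophil and monocyte transcripts thus move with the comparison, and their part in the other results was not tested.

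The summed markers of the other cell types, which a few abundant genes carry, overlapped between the CD11c+ and the control libraries. The mean log2 CPM of their tested members did not overlap for 4 lists. It was 3.50 and 3.15 in the CD11c+ libraries against 2.54 to 2.98 in the controls for dendritic cells, and 6.53 and 6.34 against 5.66 to 5.99 for B and plasma cells. For oligodendrocytes it was 3.86 and 3.73 against 2.995 to 3.33, and for endothelial and mural cells 4.17 and 4.13 against 3.76 to 4.02. These means rest on 8, 3, 6 and 5 tested members in that order, so a single gene weighs much in them. In the B and plasma cell list Cd22 had a log2 fold change of 1.74, and the list's median was 0.15. In the oligodendrocyte list Cspg4 had one of 3.22, and the median was also 0.15. The part of these differences in the other results was not tested. Border-associated macrophage markers summed to 2790 and 1940 CPM in the CD11c+ libraries and 2313 to 2428 CPM in the controls, and of 14 tested genes Siglec1 and Folr2 rose and Maf fell. Folr2 was at 6.74 and 4.58 CPM against 0.978, 2.36 and 2.48 CPM and is lost when replicate 1 of CD11c+, replicate 1 or 3 of NMO CD11c- or replicate 1, 2 or 3 of the controls is left out (adjusted p from 0.0521 to 0.172). Dendritic cell markers, of interest because dendritic cells carry CD11c, summed to 224 and 275 CPM against 242 to 256 CPM, and of 16 listed genes 8 had enough counts for the test. Flt3, the receptor on which dendritic cells depend, was at 8.78 and 7.58 CPM against 1.34, 2.57 and 1.18 CPM (adjusted p = 0.00309, log2 fold change 2.23 with SE 0.34). Kmo, of tryptophan breakdown, had a log2 fold change of 2.99 and is lost when replicate 1 of the controls (adjusted p = 0.0547) or replicate 3 of the controls (0.057) is left out. Of 20 T and NK cell markers 3 were tested and Cd5 was called, at 4.902 and 4.58 CPM against 1.22, 0.536 and 1.96 CPM. It is lost when replicate 1 of CD11c+ or replicate 1 or 2 of the controls is left out (adjusted p from 0.0635 to 0.0783). The T and NK list summed to 7.56 and 7.58 CPM against 4.39 to 8.76 CPM. Astrocyte, oligodendrocyte, neuron and endothelial lists summed to 158 and 134, 192 and 165, 13.9 and 16.9, and 367 and 357 CPM in the CD11c+ libraries, against 152 to 160, 156 to 169, 10.1 to 14.2 and 337 to 369 CPM in the controls. Among them Cspg4, the proteoglycan NG2, was at 4.902 and 4.93 CPM against 0.367, 0.7499 and 0.392 CPM (adjusted p = 0.00276, log2 fold change 3.22 with SE 0.48). Kdr, a receptor for vascular endothelial growth factor, was at 18.8 and 18.9 CPM against 9.05, 9.53 and 9.68 CPM (adjusted p = 0.00277, log2 fold change 0.997 with SE 0.15). Of the 5 tested endothelial and mural genes, 1 was called higher and 1 was called lower. The lower call is lost without control replicate 1.

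**Figure D4:**
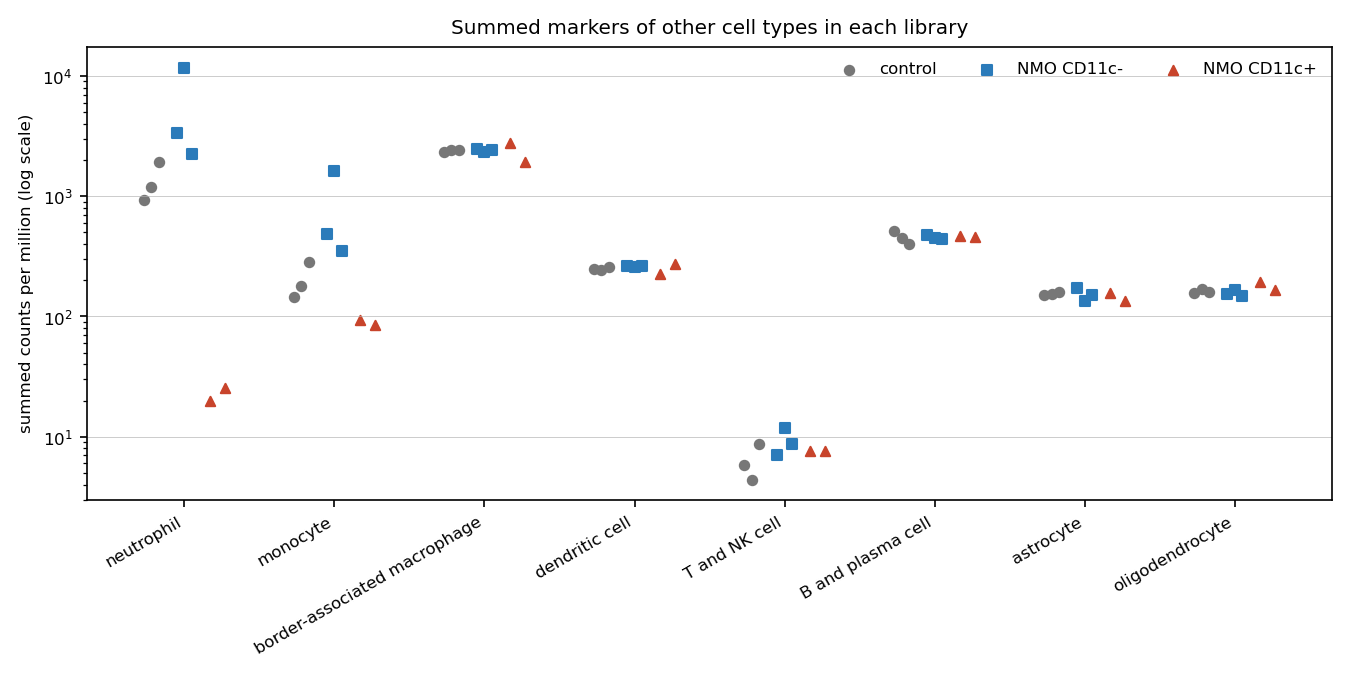
Summed CPM of the marker lists of 8 other cell types on a log axis in each library (grey circles control, blue squares NMO CD11c-, red triangles NMO CD11c+). Neutrophil markers sum to 19.8 and 25.5 CPM in the CD11c+ libraries and to 938 CPM or more in every other library, and monocyte markers are lowest in the CD11c+ libraries. The sums of the other lists overlap between the CD11c+ and the control libraries.

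The test between the disease subsets showed which of these genes also set CD11c+ cells apart from CD11c- cells of NMO mice. In that contrast 12 genes were higher (0.1% of 12002) and 22 lower (0.183%). Besides Itgax, those higher were Chst2, H2-Q7, Axl, Clec7a, Cst7 and Cd22, and, named after their values were seen, Ly9, Gpr162, Fam20c, Fblim1 and Mical1. H2-Q7 was at 26.04, 31.3 and 36.6 CPM in the NMO CD11c- libraries, between the controls and the CD11c+ libraries (adjusted p = 0.018, log2 fold change 1.33 with SE 0.17 between the subsets). Ly9, a receptor of the SLAM family, was at 142 and 125 CPM in CD11c+, 77.5, 80.4 and 77.3 CPM in NMO CD11c- and 41.3, 49.4 and 41.9 CPM in control cells (adjusted p = 0.0223, log2 fold change 0.77 with SE 0.11 between the subsets). Fam20c, a kinase of secreted proteins, was at 28.8 and 26.6, 10.8, 9.94 and 8.96 and 6.24, 9.53 and 10.5 CPM in the same order. Ly9 thus lies in 3 separate steps, while for Fam20c the NMO CD11c- libraries overlap the controls. Itgax, Chst2 and Clec7a stay called between the subsets without any 1 library; Cd22 stays called without 1 library only, and the other 8 genes without 2 to 6 of the 8.

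Of the 22 genes lower in CD11c+ than in NMO CD11c- cells 11 belong to the neutrophil list. Calcrl, a receptor for adrenomedullin and CGRP named after its value was seen, was at 12.5 and 13.4 CPM in CD11c+, 29.2, 31.6 and 30.9 CPM in NMO CD11c- and 25.2, 31.7 and 33.9 CPM in control cells (adjusted p = 0.018, log2 fold change -1.24 with SE 0.17 between the subsets). Against control its test gave adjusted p = 0.00161, log2 fold change -1.22 with SE 0.16. It is lower in the CD11c+ libraries than in all 6 others, and its call between the subsets is lost when replicate 1 of CD11c+ (adjusted p = 0.0754), replicate 1 of NMO CD11c- (0.05) or replicate 2 of the controls (0.0507) is left out. Without CD11c+ replicate 1 no gene was called lower between the subsets by edgeR, with 615 lower at an unadjusted p under 0.05. Because both contrasts use the same CD11c+ libraries, no overlap between them is read as a result.

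**Figure D5:**
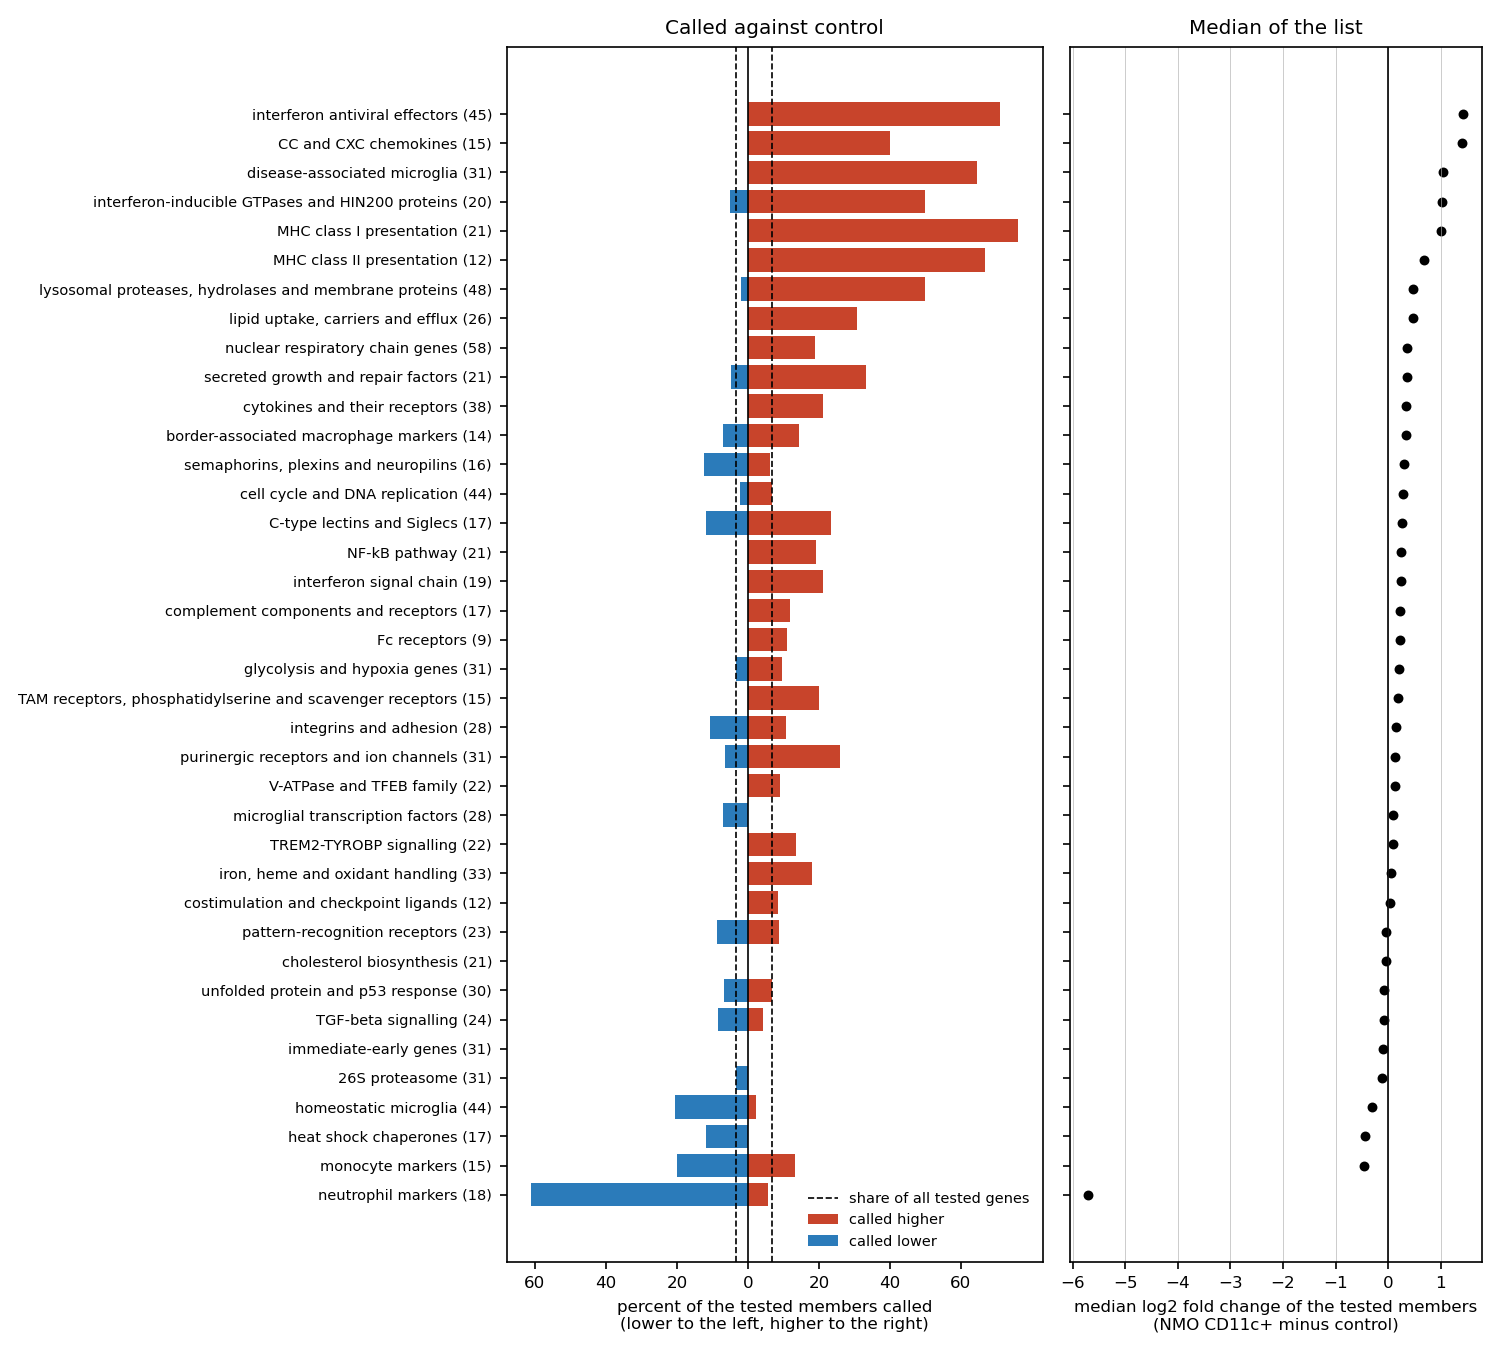
Share of the tested members of each list called higher (red, to the right) or lower (blue, to the left) in CD11c+ than in control cells, with the number of tested members in brackets and dashed lines at the share of all tested genes, 6.85% and 3.36%; the right panel gives each list's median log2 fold change. Lists with 9 or more tested members are shown, ordered by median, with antiviral effectors and chemokines at the top and the neutrophil list at the bottom.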

How the data were processed

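RNA of 8 libraries of sorted mouse microglia was sequenced: 2 of NMO CD11c+, 3 of NMO CD11c- and 3 of control microglia. Per the submitters' processing notes, reads were handled with STAR 2.3.11, HTSeq 0.5.4 and edgeR 3.12.0 on GRCm38, and the authors deposited raw counts per gene for each library. Strand handling and annotation version: not given in the sources used here. For that reason overlapping and antisense genes, and near-identical copies, cannot be told apart with certainty. Gene names were matched for 40254 of 41388 identifiers, and 0.155% of counts had no name.

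Genes were kept by edgeR's filterByExpr with a minimum count of 10 (12002 genes), scaled by TMM and tested with edgeR 4.0.16 in R 4.3.3 (quasi-likelihood F test, all 8 libraries, 3 groups, 5 residual degrees of freedom). Calls rest on a p under 0.05 after Benjamini-Hochberg adjustment over the whole table. CPM are these deposited counts divided by the scaled library size. The mean log2 CPM of the lists uses a prior count of 2, and fold changes are those of edgeR's fit with its default prior count. For genes with few counts the ratio of summed counts is given with its exact 95% interval, which covers counting error only. The procedure was tested on simulated data.

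Named genes are the sorting genes, the 15 highest and 15 lowest called log2 fold changes (mean of at least 5 CPM in the higher group, groups not overlapping) and up to 4 members of each of 47 lists with the smallest adjusted p; others are said to be chosen after their values were seen. The members and lists were chosen with earlier results of these data known. Alternatives were other scalings, count filters and tests (DESeq2 1.42.0), the 5 libraries alone, a 2-fold threshold, a correction for GC content and length, and leaving out each library. No library pair was identical. Some genes that the naming rule selects are not reported here.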

Additional observations from a re-analysis of the deposited data

How the results depend on the processing

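The count of genes higher in CD11c+ than in control cells, 822, was within 1.5 times of itself under 3 other scalings, another filter, none, DESeq2, the exact test and the GC and length correction, and came to 468 with the 5 libraries alone and to 81 against a 2-fold threshold. The 403 lower genes became 1083 with no filter, 628 with DESeq2, 668 with the exact test, 163 with the 5 libraries alone and 8 against a 2-fold threshold. Leaving out 1 library gave 388 to 2019 higher and 101 to 2051 lower genes. Alternatives for CD11c+ against NMO CD11c- cells were chosen after seeing the data: the 12 higher and 22 lower genes became 264 and 443 with no filter, 107 and 161 with DESeq2, 109 and 169 with the exact test, and 31 and 38 with the GC and length correction, and leaving out 1 library gave 3 to 1444 and 0 to 1582. The fits on 5 libraries and against a 2-fold threshold were not run for that contrast. No filter tests 21199 genes, and the 5 libraries leave fewer samples for the spread; the cause of the other shifts was not tested. Of the 140 named genes called, none changed direction under any of these alternatives, 88 lost their call against a 2-fold threshold, 19 with the 5 libraries alone, 6 with the GC and length correction, 29 without CD11c+ replicate 1 and 5 without replicate 2, 30, 31 and 32 without replicates 1, 2 and 3 of the controls, and 15, 4 and 13 without those of NMO CD11c-. No paired analysis was possible because the labels number the libraries without tying any of one group to any of another. With 2 CD11c+ libraries of 4943207 and 5914412 counts, low genes are the least precise.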

Other observations

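Genes of cytosolic ribosomal proteins, a group chosen after its values were seen and given with no test, were higher in CD11c+ than in control cells in 37 of 79 tested members, with a median log2 fold change of 0.68. Their summed level was 6019 and 6368 CPM in the CD11c+ libraries, 4589, 5469 and 4846 CPM in the NMO CD11c- libraries and 3761, 3447 and 3130 CPM in the controls, so the 3 groups do not overlap. The count was 23 to 49 when 1 library was left out, lowest without control replicate 3 and highest without CD11c+ replicate 1, and 31 with the correction for GC content and length. Ribosomal protein genes have many near-identical processed copies in the genome, so their counts are uncertain.

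Zinc-finger genes with a Zfp symbol, chosen in the same way, were lower in 20 and higher in 2 of 325 tested members. Over all genes 3.36% were called lower and 6.85% higher. With the correction for GC content and length 17 members were lower and 5 higher. Their summed level was 12010 and 16500 CPM in CD11c+ replicates 1 and 2 and 14080 to 16530 CPM in the controls. Replicate 2 thus lies within the range of the controls and replicate 1 below it. The count of lower members was 4 without CD11c+ replicate 1 and 106 without CD11c+ replicate 2, and 2, 0 and 0 without control replicates 1, 2 and 3. Without NMO CD11c- replicates 1 and 3 it was 8 in each case.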
